A study of Homo sapiens
Mus musculus with 8 samples.

Results

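The 10 genes described here belong to the transcriptional stress response run by ATF4. They were followed in the mouse lymphocyte lines EL4 and IVA12, in each of 7 single-cell RNA-seq libraries. The genes are Atf4, Atf5, Ddit3, Trib3, Chac1, Sesn2, Asns, Psat1, Slc7a11 and Slc3a2, 10 of 27998 mouse genes in the reference, and are known members of this response, picked with earlier results of these data in view. The cells were selected on measured values: a barcode counted as a mouse cell with at least 5000 unique molecular identifiers (UMIs, 1 per captured molecule), over 80% of them from the mouse and under 10% from mitochondrial genes. It was called EL4 where the UMIs of Lgals1, S100a6 and Perp together were at least 5 times those of Epcam, Cd24a, Ctss and Ckap4, and IVA12 in the reverse case. This gave 8324 EL4 and 4719 IVA12 cells of 23147 barcodes with at least 5000 UMIs.

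The study pooled 4 cell lines in equal parts, EL4 (T cells) and IVA12 (B cells) of the mouse with Jurkat and TALL-104 of human origin, and made libraries from the pool with different droplet kits. The labels name no introduced mutation and no treatment for either mouse line in any group. EL4 had been grown in RPMI medium with glutamine, serum and 2-mercaptoethanol, and IVA12 in DMEM with serum and antibiotics, so that the line and its medium cannot be told apart. The libraries used here were 1 of the 3′ v2 kit from mixture A, 2 of 5′ v1 from mixture B and 4 of 3′ v3, of which replicates 1 and 3 came from mixture F and replicates 2 and 4 from mixture G. A mixture was 1 suspension of cells. The 2 libraries of a mixture are therefore repeat libraries from the same cells, p-values measure the spread between them, and kit and mixture cannot be told apart where each kit had its own mixture.

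ATF4 is a transcription factor whose own messenger RNA is translated when the initiation factor eIF2 is phosphorylated, which happens when amino acids are short, when unfolded protein collects in the endoplasmic reticulum, when haem is low or during viral infection. It then switches on genes for amino acid uptake and synthesis, for glutathione supply and for tRNA charging. If the stress lasts, its partner CHOP, encoded by Ddit3, adds genes that favour cell death, and TRIB3 holds both back. Slc7a11 and Slc3a2 encode the exchanger that brings in cystine, a source of cysteine for glutathione.

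Between 89 and 2689 cells of a line were found per library, with 2411033 to 78154141 mouse UMIs in sum and medians of 25326 to 35252 UMIs per cell. Replicate 2 of 3′ v2 held the smallest sums, and its IVA12 values rest on 89 cells. The mitochondrial share had medians of 2.07% to 2.23% in 3′ v2, 4.33% to 5.86% in 5′ v1, 4.22% to 5.75% in mixture F and 6.57% to 6.90% in mixture G. The T lineage genes Cd3d, Cd3e, Cd3g, Lck and Thy1, which the rule did not use, marked EL4. IVA12 held Jchain, Mzb1, Sdc1, Cd79b and Ms4a1, whereas the B cell genes Cd79a and Pax5 lay at 0.150 to 0.556 CPM (UMIs scaled to 1000000 mouse UMIs of the sum) in all its sums. Pairs of libraries of 1 kit, and of 3′ v2 with 5′ v1, shared 0 to 9 cell barcodes. The summed T lineage genes stood in IVA12 at 0.652% to 0.811% of their EL4 level in 5′ v1, at 1.15% to 2.75% in 3′ v3 and at 1.002% in 3′ v2. The summed B lineage and antibody-secreting genes stood in EL4 at 1.37% to 1.41%, 1.94% to 4.53% and 2.17% of their IVA12 level. These shares hold RNA carried over between cells and also what a line expresses of the other's list itself. Mouse RNA also gave Atf4 a UMI in 1.27% to 16.8% of human barcodes, Asns in 0.955% to 32.4% and Psat1 in 1.27% to 29.5%, which should lack mouse transcripts and had medians of 10381 to 19127 UMIs.

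UMIs were summed per line and library, since cells of 1 library are not replicates. Levels are given as CPM, the scale defined above. Differences between lines or mixtures are log2 values from edgeR's quasi-likelihood test with trimmed-mean scaling, with a standard error (SE) derived from its F statistic, and a gene was called at an adjusted p (Benjamini-Hochberg, over all genes tested) under 0.05. Both lines were compared within the same library. With sums of this size most genes differed between the lines. Each count of members called with trimmed-mean scaling is set beside the share of all genes called. Counts under other scalings or cell limits, and that of the untested 3′ v2 library, have no such share beside them.

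**Figure D1:**
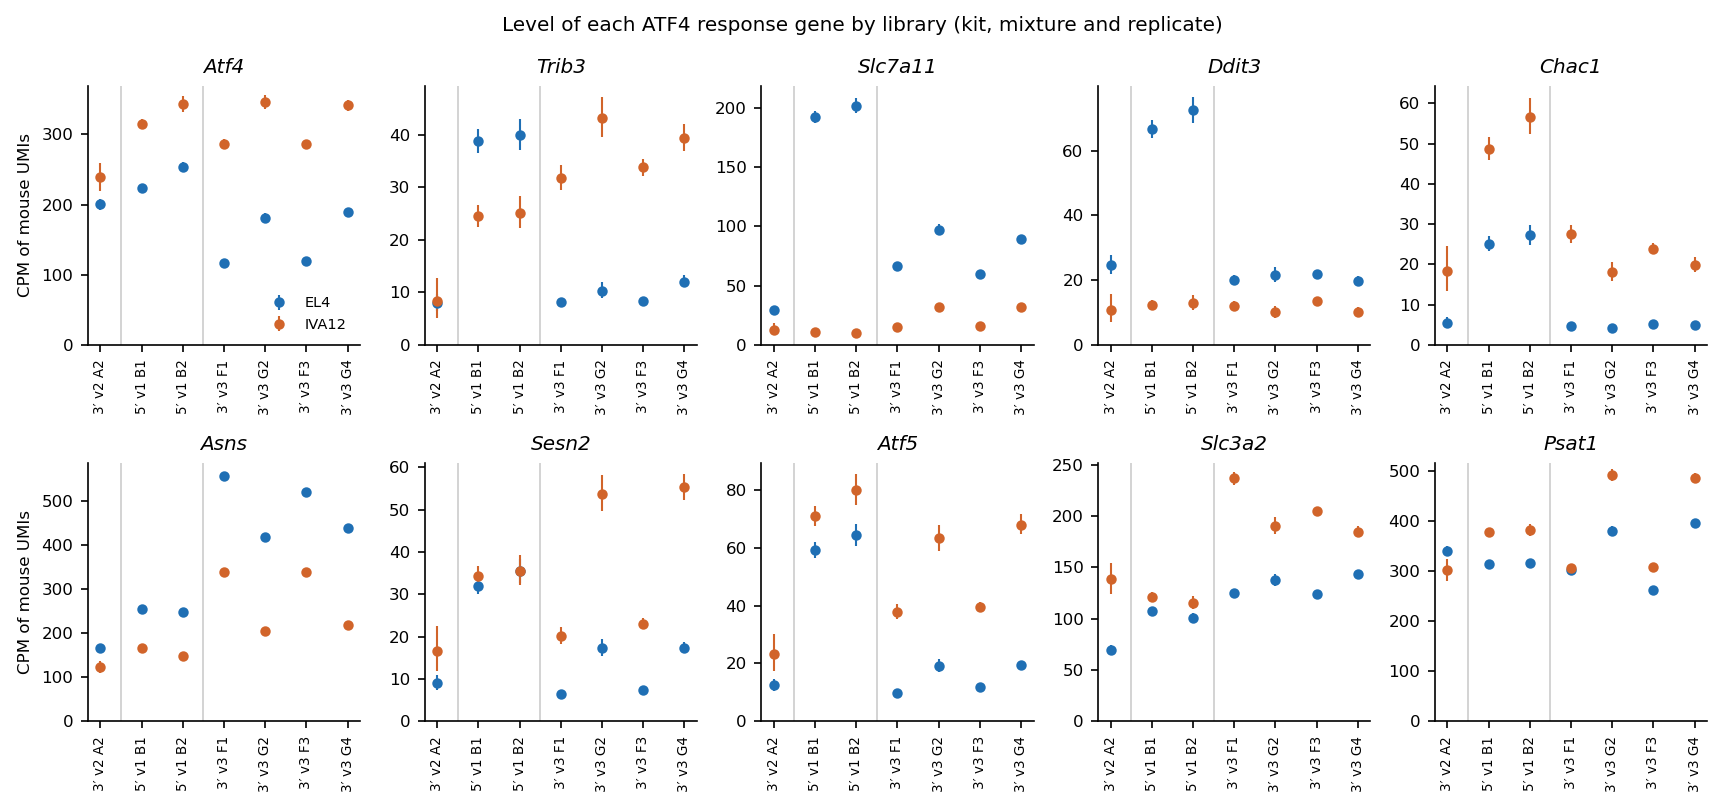
Level of each of the 10 genes in CPM of mouse UMIs (vertical axes, linear from 0) in each library (horizontal axes: kit, then mixture letter and replicate number). Blue points are EL4 and orange points IVA12, bars are exact 95% Poisson intervals that cover counting error only, and vertical lines part the kits. Trib3 was higher in EL4 in both 5′ v1 libraries and higher in IVA12 in the 4 libraries of 3′ v3.

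Between the lines in 3′ v3, 9 of the 10 members were called, 3 higher and 6 lower in EL4, against 79.1% of 12326 genes tested, of which 40.0% were higher and 39.1% lower. The members thus split between the lines, as all genes did, and did not lie on 1 side. The regulators Atf4, Atf5 and Trib3, the glutathione-degrading enzyme Chac1, the stress sensor Sesn2 and the transporter chain Slc3a2 were lower in EL4. Slc7a11, Ddit3 and Asns were higher. The median over the 10 members was -0.79 (log2, EL4 minus IVA12), and the median over all genes tested was 0.0097.

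Among the transcription factors, Atf4 itself was lower in EL4 in every library. Its CPM in EL4 was 117 and 119.9 in the libraries of mixture F and 181 and 189 in those of mixture G, against 286 and 286, then 346 and 341, in IVA12. The groups did not overlap. The log2 difference was -1.03 (SE 0.07, adjusted p = 5.98e-06 by edgeR, n = 4 libraries).

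Atf5, a related factor that is also translated under eIF2 phosphorylation, had a wider gap. EL4 stood at 9.90 and 11.7 CPM in mixture F and 19.2 and 19.3 in mixture G. IVA12 stood at 37.9 and 39.7, then 63.2 and 68.0, so that even its lowest library was above the highest of EL4. The log2 difference was -1.75 (SE 0.07, adjusted p = 3.30e-07).

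Ddit3, which encodes CHOP, went the other way. Its level in EL4 was 20.1, 21.6, 21.8 and 19.8 CPM in replicates 1 to 4 of 3′ v3, and in IVA12 12.1, 10.1, 13.6 and 10.2. All EL4 libraries were above all IVA12 libraries, by 0.91 on the log2 scale (SE 0.09, adjusted p = 3.09e-05).

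Trib3, the pseudokinase that restrains ATF4 and CHOP, was lower in EL4. EL4 had 8.08, 10.4, 8.34 and 12.1 CPM in replicates 1 to 4, whereas IVA12 had 31.8, 43.3, 33.8 and 39.5. The log2 difference was -1.88 (SE 0.08, adjusted p = 3.70e-07).

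Chac1, a γ-glutamyl cyclotransferase that breaks down glutathione, had the widest gap of the 10. In EL4 it was at 4.59, 4.09, 5.27 and 4.85 CPM and in IVA12 at 27.5, 18.1, 23.8 and 19.96, a log2 difference of -2.18 (SE 0.11, adjusted p = 6.74e-07). Sesn2, whose product senses leucine and curbs mTORC1, had 6.34 and 7.49 CPM in EL4 of mixture F and 17.3 and 17.4 in mixture G. IVA12 had 20.2 and 23.0, then 53.8 and 55.3. Within each mixture the lines were apart, by -1.59 on the log2 scale (SE 0.07, adjusted p = 4.69e-07).

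Of the enzymes of amino acid synthesis, Asns was called and Psat1 was not. Asns, asparagine synthetase, was at 556 and 519 CPM in EL4 of mixture F and 417 and 438 in mixture G, above IVA12 at 337 and 337, then 205 and 217. EL4 was higher by 0.90 on the log2 scale (SE 0.07, adjusted p = 8.87e-06). Psat1, the aminotransferase of serine synthesis, had 301, 380.2, 262 and 396 CPM in EL4 and 306, 492, 308 and 486 in IVA12, and the groups overlapped, although EL4 was below IVA12 within each of the 4 libraries. Its log2 difference of -0.17 (SE 0.07) was not called (adjusted p = 0.0638), and 3 of 18 alternatives called it.

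The chains of the cystine-glutamate exchanger differed in opposite directions. Slc7a11, the transporting chain, was at 66.8, 97.4, 59.9 and 89.5 CPM in EL4 and at 14.7, 31.6, 16.1 and 31.6 in IVA12, higher in EL4 by 1.86 on the log2 scale (SE 0.13, adjusted p = 3.85e-06). Slc3a2, the heavy chain that other amino acid transporters share, was at 125, 137, 124 and 143 CPM in EL4 and at 237, 191, 205 and 185 in IVA12. It was lower in EL4 by -0.56 on the log2 scale (SE 0.08, adjusted p = 3.51e-04).

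The same contrast in 5′ v1 called 7 members, 5 higher and 2 lower in EL4, against 85.1% of 12232 genes, 42.2% higher and 42.8% lower. This fit has 1 residual degree of freedom, so its p-values lean on the spread that edgeR shares across genes. Slc7a11 was at 192 and 202 CPM in EL4 and 11.0 and 10.2 in IVA12, a log2 difference of 4.42 (SE 0.09). Ddit3 was at 66.6 and 72.5 CPM against 12.4 and 13.0 (log2 2.67, SE 0.09). Among the 10 members in 5′ v1, Slc7a11 had the widest gap and Chac1 the lowest value.

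Trib3 was here higher in EL4, at 38.8 and 40.1 CPM against 24.5 and 25.1 (log2 0.89, SE 0.08, edgeR adjusted p = 1.02e-27). Asns was at 254 and 247 against 166 and 149 (log2 0.88, SE 0.07). Sesn2 was close, at 32.0 and 35.5 CPM in EL4 and 34.2 and 35.6 in IVA12. Its call (log2 0.16, SE 0.08, edgeR adjusted p = 0.0416) was lost in 6 of 14 alternatives. Its direction turned to -0.060 when libraries were scaled by their totals alone. That scaling put the median of all genes at -0.23.

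Lower in EL4 of 5′ v1 were Chac1, at 25.1 and 27.2 CPM against 48.7 and 56.7 (log2 -0.78, SE 0.08), and Atf4, at 223 and 253 against 315 and 343 (log2 -0.25, SE 0.07). The other 3 members missed the call with trimmed-mean scaling, although their CPM was lower in EL4 in both libraries. Atf5 had 59.1 and 64.3 CPM against 70.9 and 80.1 (log2 -0.07, SE 0.07), Slc3a2 had 108 and 101 against 121 and 115 (log2 0.03, SE 0.07), and Psat1 had 314 and 316 against 378 and 381 (log2 -0.05, SE 0.07). Scaled by library totals alone, all 3 were called lower in EL4, at -0.29, -0.19 and -0.27, and the members split 4 higher and 5 lower, with no share of all genes given for that scaling.

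In the single library of 3′ v2 the exact 95% Poisson intervals of the lines lay apart for 9 of the 10 members. The share of all genes with intervals apart was not computed, so this count is not read as a result about the members. By test, 79.1% of all genes were called between the lines in 3′ v3 and 85.1% in 5′ v1. EL4 was higher for Slc7a11, at 29.5 CPM (26.5 to 32.8) against 12.9 (8.74 to 18.3), for Ddit3, at 24.6 (21.9 to 27.6) against 10.8 (7.04 to 15.8), and, by smaller ratios, for Asns at 166 against 122 and Psat1 at 339.9 against 302. IVA12 was higher for Chac1, at 18.2 CPM (13.3 to 24.5) against 5.47 (4.21 to 6.99), for Slc3a2 at 139 against 69.9, Atf5 at 23.2 against 12.6, Sesn2 at 16.6 against 9.06 and Atf4 at 239 against 200.2. Trib3 was at 7.95 CPM (6.42 to 9.74) in EL4 and 8.30 (5.07 to 12.8) in IVA12. There was no replicate, so these differences have no test.

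**Figure D2:**
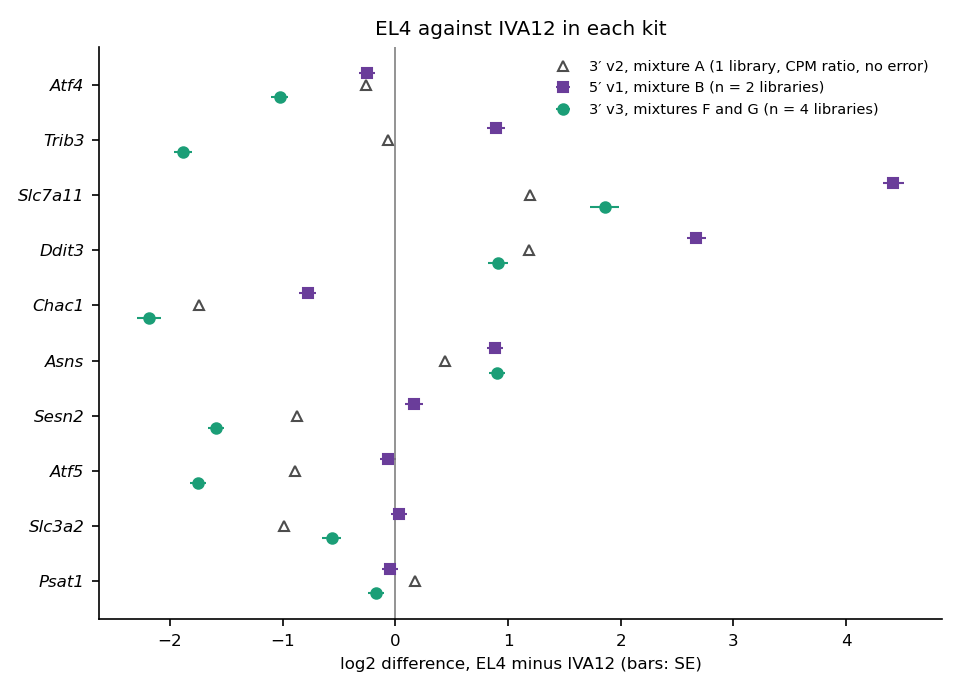
Log2 difference of EL4 minus IVA12 (horizontal axis) for each gene in 5′ v1 (purple squares, 2 libraries), 3′ v3 (green circles, 4 libraries) and 3′ v2 (open triangles, the log2 ratio of CPM in 1 library, with no error). Bars are SE. For 9 of the genes the 5′ v1 value lies to the right of the 3′ v3 value, most widely for Trib3 (0.89 against -1.88), and for Asns both are close to 0.9.

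The change of the line difference between kits was tested as an interaction over the 12 sums of 3′ v3 and 5′ v1. Of the 10 members, 8 were called, all with a lower EL4 value relative to IVA12 in 3′ v3 and mixtures F and G than in 5′ v1 and mixture B. Called the other way were 0, and 0 had an unadjusted p under 0.05 in that direction, by edgeR and by DESeq2. The background was 33.0% of 11941 genes called, 17.9% with the line difference higher in 3′ v3 and 15.1% lower. The median over the members was -1.52 (log2, 3′ v3 minus 5′ v1) and over all genes 0.01.

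Trib3 had the largest interaction of the members at -2.75 (SE 0.13, adjusted p = 2.32e-05) and ranked 2 of 11941 genes by p. Sesn2 (-1.74, SE 0.11) ranked 9 and Atf5 (-1.66, SE 0.11) ranked 12. Ddit3 (-1.75, SE 0.13), Slc7a11 (-2.55, SE 0.21), Chac1 (-1.38, SE 0.16), Atf4 (-0.76, SE 0.12) and Slc3a2 (-0.58, SE 0.14) followed. The 2 synthesis enzymes did not pass: Asns had 0.03 (SE 0.11, adjusted p = 0.855) and Psat1 -0.11 (SE 0.13, adjusted p = 0.535). Ddit3, higher in EL4 in both kits, and Chac1, lower in EL4 in both, thus changed in the same direction.

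The kits read different ends of a transcript, so levels of a gene in 5′ v1 and in 3′ v3 are given side by side, and only the line difference was tested. Side by side, Trib3 in EL4 was at 38.8 and 40.1 CPM in 5′ v1 and 8.08 to 12.1 in 3′ v3, while in IVA12 it was at 24.5 and 25.1 and at 31.8 to 43.3. Sesn2 in EL4 was at 32.0 and 35.5 CPM and at 6.34 to 17.4, and in IVA12 at 34.2 and 35.6 and at 20.2 to 55.3. The 3′ v2 library, which also reads the 3′ end but came from mixture A, gave log2 ratios of EL4 to IVA12, here from CPM with no further scaling, that lay between those of the single libraries of the other kits for Trib3 (-0.06), Ddit3 (1.19), Chac1 (-1.74), Sesn2 (-0.87) and Atf5 (-0.89). They lay below all of them for Slc7a11 (1.197), Slc3a2 (-0.99) and Asns (0.44), and above all of them for Atf4 (-0.26) and Psat1 (0.17).

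The line differences of the lineage genes, which the rule did not use, changed between the kits too, toward smaller gaps in 3′ v3 by their medians: of the T lineage genes 7 of 11 were lower and 1 higher (median -2.10), and of the B lineage genes 5 of 12 were higher and 2 lower (median 1.25). When the share of the other line given by the lineage genes was taken out of every sum, an alternative chosen after seeing the data, 8 members were again called and the interactions of Trib3, Sesn2 and Atf5 were -2.95, -1.90 and -1.83. That share does not measure carried-over RNA alone. In 5′ v1 replicate 1, Cd2 made up 16.7 of the 27.5 CPM of T lineage genes in IVA12, with 17.2 in EL4. Xbp1 made up 63.1 of the 101.9 CPM of B lineage genes in EL4. No conclusion on carried-over RNA is drawn from this alternative. Slc3a2 lost its call without either library of 5′ v1 and with a mitochondrial limit of 5%, and the count was then 7.

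Mixtures F and G were compared within 3′ v3 and within each line, with 2 libraries a mixture. In EL4, 7 members were called, 3 higher and 4 lower in mixture G, against 54.3% of 13033 genes, 25.4% higher and 28.9% lower. In IVA12, 8 were called, 4 higher and 4 lower, against 58.3%, 26.4% higher and 31.9% lower. The members again split, as all genes did, and the split is not read as particular to them. The median over them was 0.09 in EL4 and -0.01 in IVA12 (log2, G minus F), and over all genes -0.02 and -0.08. The mitochondrial share of the cells was higher in mixture G, with the medians given above, and its part in these differences was not tested.

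Higher in mixture G were Sesn2 and Atf5. Sesn2 differed by 0.94 (SE 0.11, adjusted p = 1.40e-04) in EL4 and 1.02 (SE 0.11, adjusted p = 3.90e-05) in IVA12, and Atf5 by 0.45 (SE 0.10) in both. Lower in mixture G were Asns, by -0.71 (SE 0.06, adjusted p = 2.80e-05) in EL4 and -0.98 (SE 0.07, adjusted p = 3.63e-06) in IVA12, Chac1, by -0.50 (SE 0.14) and -0.72 (SE 0.12), and Ddit3, by -0.40 (SE 0.10) and -0.66 (SE 0.11). Sesn2 and Asns, both textbook ATF4 targets, differed in opposite directions, and the libraries of F and G did not overlap in CPM for either gene in either line.

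Slc3a2 was lower in mixture G by -0.20 (SE 0.07, edgeR adjusted p = 0.0323) in EL4 and -0.54 (SE 0.07) in IVA12. In EL4 its CPM ran the other way, at 125 and 124 in F and 137 and 143 in G. Of 19 alternatives for EL4, 9 lost this call and 1 reversed the direction. Slc7a11 was higher in G by 0.72 (SE 0.09) in IVA12, and in EL4 its value of 0.19 (SE 0.07) missed the call (adjusted p = 0.0601), although its CPM in G lay above that in F, 8 of 19 alternatives called it and library totals alone gave 0.56. Psat1 had 0.37 (SE 0.07, called) in IVA12 and 0.09 (SE 0.07, not called) in EL4. Atf4 had 0.27 (SE 0.06, called) in EL4 and -0.04 (SE 0.06, not called) in IVA12, and Trib3 was called in neither, at 0.09 (SE 0.10) and 0.02 (SE 0.09). In EL4, where the CPM of Trib3 in G lay above that in F, library totals alone gave 0.47 and a mitochondrial limit of 5% gave 1.25, both called.

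These directions are relative to the scaling of edgeR. Scaled by library totals alone, the median of all genes was 0.35 higher in mixture G in EL4 and 0.22 higher in IVA12, the members split 6 higher and 1 lower in EL4 and 6 higher and 4 lower in IVA12, and Slc3a2 in EL4 turned to 0.17 and Atf4 in IVA12 to 0.26. The share of all genes called under that scaling is not given here, so this split is not set against a background. Sesn2, Atf5, Asns, Chac1 and Ddit3 kept their signs in both lines under that scaling, but in EL4 Chac1 (-0.12) and Ddit3 (-0.03) came close to 0 and were no longer called. With a mitochondrial limit of 5%, which left 41 to 92 cells per sum of mixture G, 4 members were called in EL4 and 3 in IVA12, and Ddit3 turned to 0.18 and 0.11. Without replicate 4 of 3′ v3, 2 members were called in EL4, and without replicate 2, 4 were.

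**Figure D3:**
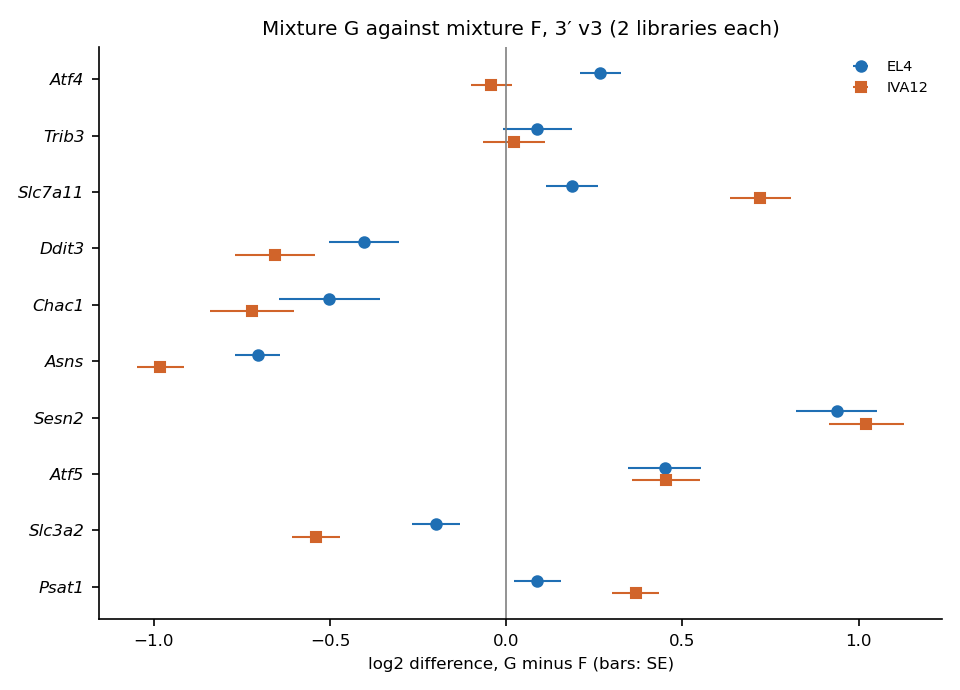
Log2 difference of mixture G minus mixture F in 3′ v3 (horizontal axis) for each gene in EL4 (blue circles) and IVA12 (orange squares), 2 libraries per mixture, with SE as bars. Sesn2 lies near 1 and Asns between -0.7 and -1 in both lines, and Atf4 and Trib3 lie near 0 in IVA12.

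The interaction of line and mixture was called for 5 members, 3 with a higher and 2 with a lower EL4 value relative to IVA12 in mixture G, against 16.2% of 12326 genes, 8.62% higher and 7.54% lower. Atf4 (0.31, SE 0.06, adjusted p = 6.92e-03), Asns (0.27, SE 0.06) and Slc3a2 (0.33, SE 0.08) were higher, and Slc7a11 (-0.54, SE 0.11, adjusted p = 0.0114) and Psat1 (-0.28, SE 0.07) lower. All 5 were at most 0.54 in size. The count fell to 1 without a filter on low counts, with cells thinned to 5000 UMIs and without replicate 1, to 2 without replicate 4 and to 3 without replicate 2. With a mitochondrial limit of 5% it was 0, with 3 members at an unadjusted p under 0.05 by edgeR, whereas DESeq2 with the limit of 10% called 4.

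Over the 14 sums of line and library, each gene centred within its kit, the members fell into blocks. Across these sums, which share libraries and mixtures, Pearson's r between pairs ran from -0.92 (Atf4 with Asns) to 0.97 (Atf4 with Atf5), with 24 of 45 pairs above 0 and a median of 0.23, beside 53.6% of all pairs of 8869 genes above 0 and a median of 0.09. Atf4, Atf5, Sesn2, Trib3, Chac1 and Slc3a2 were positive with each other, and Psat1 was positive with each of them, from 0.16 with Slc3a2 to 0.76 with Sesn2. Slc7a11, Ddit3 and Asns formed the other block, with r of 0.93 for Slc7a11 and Ddit3 and 0.77 for Ddit3 and Asns, and each was negative with Atf4, at -0.60, -0.63 and -0.92, and with Psat1. These blocks were read off after the values were seen, over sums of 2 lines that the differences above set apart.

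The genes outside the lists whose pattern over these 14 sums was most like the mean of the members were Blcap (r = 0.95), Pemt, Lmo4 and Phf10 (0.94 each), Lrrfip2 and Mfsd6 (0.93), Cnot7, Fam35a and Hacd3 (0.92) and Glce (0.92). They were taken from 8748 genes by that r alone. Of the members, Trib3 (0.95), Sesn2 (0.93) and Atf5 (0.92) were closest to the mean, which holds them too, Asns had -0.72, and Ddit3 (-0.19) and Slc7a11 (-0.13) were near 0.

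Over cells of 1 line and 1 library the picture differed. Cells with at least 10000 mouse UMIs were thinned to 10000, and Spearman's rho was taken between members with a UMI in at least 5% of cells. The median over member pairs was above 0 in all 14 sets of line and library, from 0.055 in EL4 of 3′ v3 replicate 2 to 0.14 in IVA12 of 3′ v2, with a median of 0.11. The median over all pairs of genes of the same filter lay between -0.0049 and 0.0043. Cells of 1 set share a library and a depth, and no cell is a replicate.

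Atf4 with Trib3 had the highest rho, with a median of 0.22 over the 14 sets and a range of 0.10 to 0.34. Atf4 with Chac1 had 0.19 (0.10 to 0.36), but over the 9 sets in which Chac1 passed the filter. Atf4 with Psat1 had 0.18 (0.088 to 0.27) and Asns with Psat1 0.16 (0.084 to 0.29), each over 14 sets. Asns, which was negative with Atf4 over the sums, had a rho with it over cells of 0.12 (-0.015 to 0.29). The lowest pair was Ddit3 with Psat1, at 0.030 (-0.032 to 0.12). Such values are weak in sparse counts, and at 5000 UMIs per cell the median over sets fell to 0.067.

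**Figure D4:**
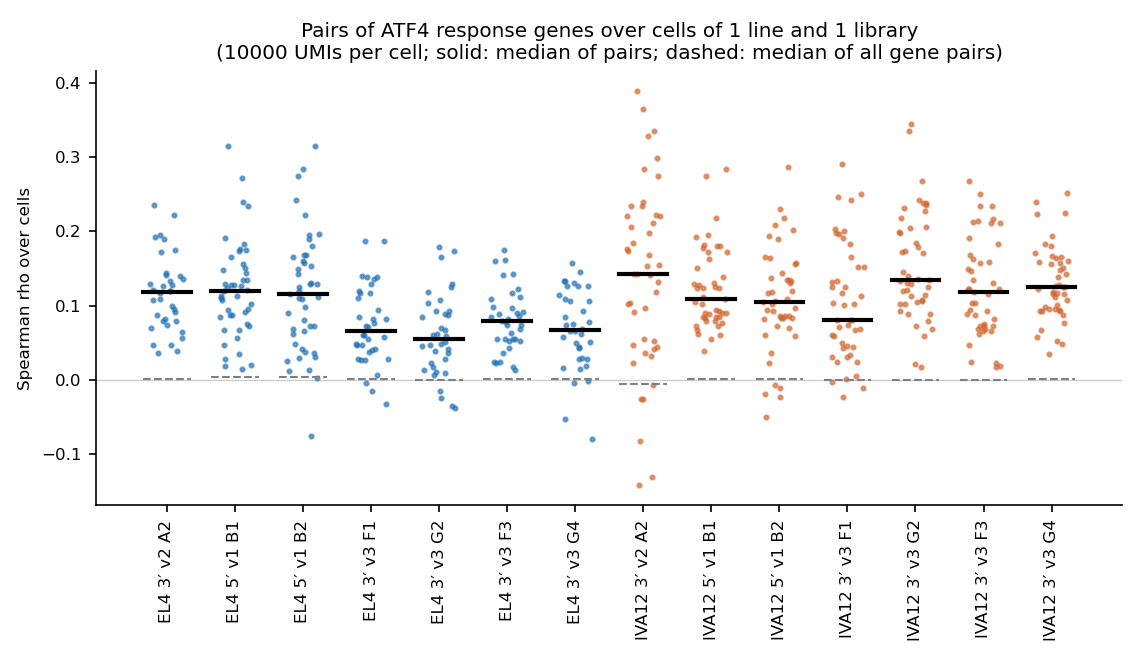
Spearman's rho over cells (vertical axis) for each pair of members, in each line and library (horizontal axis), after thinning to 10000 UMIs per cell. Coloured points are pairs, solid bars the median of the pairs, and dashed bars the median over all pairs of genes. The solid bars lie between 0.055 and 0.14 and the dashed bars at 0 to within 0.005.

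Other genes of the pathway were read from lists, and their counts stand beside 79.1% of all genes called between the lines in 3′ v3, 40.0% higher and 39.1% lower. In the eIF2 list, which holds the kinases of eIF2, its α subunit Eif2s1, the subunits of its exchange factor eIF2B and the phosphatase subunits that reverse the phosphorylation, 3 of 12 were higher and 7 lower in EL4 in 3′ v3. Eif2ak4, the kinase GCN2 that senses uncharged tRNA, was higher in EL4 (log2 1.29, SE 0.09), and Eif2ak3, the kinase PERK of the endoplasmic reticulum, was lower (-0.85, SE 0.07). Ppp1r15a, the stress-induced phosphatase subunit GADD34 that ATF4 and CHOP raise, was also lower (-0.86, SE 0.08), as was Eif2b4 (-1.35, SE 0.08), a subunit of eIF2B. The median was -0.27, and the 10 of 12 called lie close to the share of all genes.

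In serine and one-carbon synthesis 2 of 7 were higher and 5 lower in EL4 of 3′ v3, among them Aldh1l2 (-5.36, SE 0.23), Psph (-2.07, SE 0.12), Shmt2 (-1.05, SE 0.07) and Mthfd2 (-0.67, SE 0.05). Of the tRNA synthetases and Xpot, 1 of 13 was higher and 10 lower, led by Tars (-1.02, SE 0.05), Eprs, Mars (-0.76, SE 0.07) and Lars (-0.72, SE 0.05). Of the amino acid transporters tested in the same kit, 1 of 8 was higher, Slc38a1 (3.30, SE 0.07), which carries glutamine, and 6 were lower, including Slc6a9 (-1.15, SE 0.09) for glycine and Slc1a4 (-1.05, SE 0.08).

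Of 22 other ATF4 targets 19 were tested, 17 were lower and 0 were called higher in EL4 in 3′ v3, with a median of -1.54. By edgeR 0 were higher at an unadjusted p under 0.05 as well, and DESeq2 called 0 higher and 17 lower. The strongest were Jdp2 (-5.26, SE 0.30), Cth (-5.09, SE 0.34), the enzyme that makes cysteine from cystathionine, Fgf21 (-5.09, SE 0.38) and Adm2 (-5.07, SE 0.28). Jdp2 had 0 to 0.327 CPM in EL4 of 3′ v3 and 7.40 to 10.0 in IVA12, and Fgf21 0.0234 to 0.141 and 2.44 to 5.06. Adm2 had 0.248 to 1.25 and 18.2 to 22.2. Cth had 0.558 to 3.32 CPM in EL4 of 3′ v3 and 52.3 to 85.5 in IVA12, and at such low levels RNA carried over from IVA12 cannot be told apart from expression in EL4. Jdp2 and Fgf21, like Aldh1l2 and Srxn1 of other lists, passed the filter on low counts only through IVA12, so that their direction was set in advance. Adm2 and Cbs, and Me1 of the NRF2 list, also had too few EL4 sums above that limit to pass without IVA12. Their direction is therefore not read as support either. The counts of lower genes include them. In 5′ v1 the differences were -2.37 (SE 0.41) for Jdp2, -7.89 (SE 0.18) for Cth, -5.44 (SE 0.60) for Fgf21 and -6.38 (SE 0.24) for Adm2. There EL4 had 0 to 0.419 CPM of these genes, and each, Cth included, passed the filter only through IVA12. Their direction in 5′ v1 was thus set in advance too and is no support from a second kit. In 3′ v3 the B lineage and antibody-secreting genes had a median of -5.46. Also in 3′ v3, NRF2 targets, the antioxidant genes that share Slc7a11 with this response, went the other way, with 11 of 14 higher and 2 lower in EL4 (median 1.07), led by Nqo1 (5.07, SE 0.14) and Gclm (1.87, SE 0.07), but with Srxn1 (-5.00, SE 0.27) and Me1 (-3.79, SE 0.19) lower. Of the chaperone and secretory genes that ATF6 and XBP1 run, 3 of 18 were higher and 15 lower in the same kit, led by Xbp1 itself (-2.65, SE 0.09) and Creld2 (-1.95, SE 0.09).

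In 5′ v1, where 85.1% of all genes were called, the eIF2 list had 4 higher and 8 lower of 12, the serine list 2 and 5 of 7, the transporters 5 and 3 of 8 (median 0.27), the tRNA synthetases 1 and 8 of 13, the other ATF4 targets 3 and 13 of 19, NRF2 targets 11 and 3 of 14 and ATF6 and XBP1 targets 3 and 14 of 18. Of the genes named from 3′ v3, 3 were lower in EL4 there and higher in EL4 in 5′ v1, namely Slc6a9 (1.15, SE 0.08), Ppp1r15a (0.40, SE 0.10, edgeR adjusted p = 6.26e-05) and Mthfd2 (0.27, SE 0.07, edgeR adjusted p = 1.91e-04). Scaled by library totals alone, the transporters had 2 higher and 3 lower in 5′ v1, the eIF2 list 3 and 8 and the serine list 0 and 5. In the serine list 0 were higher by edgeR at an unadjusted p under 0.05, while DESeq2 with its own scaling called 2 higher and 5 lower. Mthfd2, at 328 and 315.4 CPM in EL4 against 305 and 315.7 in IVA12, thus lost its call with library totals alone.

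Between mixtures, where 54.3% of all genes were called in EL4 and 58.3% in IVA12, 7 of 9 amino acid transporters were higher in G and 0 were lower in EL4, and 7 were higher and 2 lower in IVA12, with medians of 0.66 and 0.65. In EL4 0 were lower at an unadjusted p under 0.05 by edgeR, and DESeq2 also called 7 higher and 0 lower. Slc7a1, the cationic amino acid transporter, was higher by 0.98 (SE 0.06) in EL4 and 1.44 (SE 0.06) in IVA12, Slc6a9 by 1.07 (SE 0.12) in EL4 and Slc7a3 by 1.71 (SE 0.55) in IVA12. Slc7a3 rests on very low levels, at 0.143 and 0.187 CPM in IVA12 of mixture F and 1.09 and 0.485 in mixture G. It passed the filter on low counts only through IVA12 of mixture G, so that its direction there was set in advance. The 7 transporters higher in IVA12 include it. The eIF2 list had 3 higher and 5 lower in EL4 and 4 and 5 in IVA12, with Ppp1r15b at 0.91 (SE 0.09) and 0.95 (SE 0.09). For tRNA synthetases the counts were 6 and 2, then 4 and 3, for serine and one-carbon synthesis 1 and 2, then 2 and 3, and for the other ATF4 targets 4 and 7, then 2 and 9, with Ddit4 at -1.29 (SE 0.15) in EL4 and Nupr1 at -1.15 (SE 0.19) in IVA12. NRF2 targets had 4 higher and 7 lower in EL4 and 3 and 7 in IVA12, with Prdx1 at -1.98 (SE 0.05) and -2.15 (SE 0.05), and ATF6 and XBP1 targets 5 and 7, then 5 and 11. Under scaling by library totals alone the transporters had 8 higher and 0 lower in EL4 and 7 and 0 in IVA12, with 0 lower by edgeR at an unadjusted p under 0.05, the other ATF4 targets 7 and 4, then 6 and 5, the eIF2 list 6 and 2, then 4 and 3, and the serine list 5 and 1, then 3 and 2. The tRNA synthetases had 10 and 0 (0 lower also at an unadjusted p under 0.05 by edgeR, and 2 lower with trimmed-mean scaling), then 10 and 1, NRF2 targets 5 and 5, then 5 and 6, and ATF6 and XBP1 targets 8 and 4, then 6 and 6. With trimmed-mean scaling the transporters were thus mostly higher in G, beside 25.4% of all genes higher in EL4 and 26.4% in IVA12. The balance of the other lists between mixtures moved with the scaling. The shares of all genes above belong to trimmed-mean scaling, and none is given for library totals alone. There all genes had medians of 0.35 in EL4 and 0.22 in IVA12, and the transporters 1.04 and 0.96. The counts under library totals are therefore not read as results about the lists.

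For the change of the line difference between kits, where 33.0% of all genes were called, the transporters had 0 higher and 6 of 8 lower in 3′ v3 (median -0.63), with 0 higher by edgeR at an unadjusted p under 0.05 and 0 higher and 7 lower by DESeq2, and the other ATF4 targets 2 higher and 9 lower of 19 (median -0.61). The tRNA synthetases had 3 higher and 0 lower of 13 (median 0.00095), with 1 lower by edgeR at an unadjusted p under 0.05 and 1 called lower by DESeq2. Further counts were 5 higher and 1 lower of 12 for the eIF2 list (median 0.38; 9 and 1 with library totals alone), 3 and 2 of 7 for the serine list (4 and 1 with library totals alone), 3 and 5 of 14 for NRF2 targets, and 10 and 4 of 18 for ATF6 and XBP1 targets. The 1 gene of the eIF2 list that was lower was Ppp1r15a, at -1.25, named here after its value was seen.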

How the data were processed

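UMIs were analysed in 7 libraries, and the first 3′ v2 library was not used here. The unit is the unnormalized UMI count as deposited by the authors, who thinned the reads of each library with seqtk, counted them with Cell Ranger 3.0.2 on a joint hg19 and mm10 reference, kept every barcode and pooled no replicates. Groups are the kits in the labels. Mixtures come from the study's sample summary, and replicates were numbered in accession order. Totals ran from 24790710 to 251164949 UMIs per library, and Poisson intervals cover counting error only.

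Mouse cells were taken by the limits given above. Barcodes that met the marker ratio in neither direction, 3 to 133 per library, were left out. Doublets were not otherwise treated, and some of both lines remain possible: in 3′ v2 the EL4 markers of the rule summed to 3168 CPM in EL4 and the IVA12 markers to 439 in IVA12, so that an even doublet can be called EL4. Counts were summed per line and library and fitted with edgeR 4.0.16 (glmQLFit and glmQLFTest, R 4.3.3, TMM, filterByExpr) over all mouse genes. Line contrasts and interactions had the library as a block, and mixture contrasts were fitted in 4 groups of line and mixture. The mixture fit had no library term and 4 residual degrees of freedom. It thus treated the EL4 and IVA12 sums of 1 library as independent, and its p-values can look better replicated than 2 libraries per mixture allow. The SE is the size of the log2 difference over the square root of F. The procedure was also run on simulated data, whose outcome is not given here and is not used as support. DESeq2 1.42.0, other scalings, filters, cell limits, thinning and leaving out each library were the alternatives. Gene patterns used log2 of CPM plus 1.

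The members and gene lists were chosen with earlier results of these data known. Named genes of a list are at most the 4 called genes of the largest difference between lines and at most 2 per mixture contrast. Trac, Trbc1, Trbc2, Ighm and Igkc of the marker lists were not analysed here. No genome was used, and no sequence is printed.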

Additional observations from a re-analysis of the deposited data

Results flagged for a closer look

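The difference between EL4 and IVA12 was not the same in both kits for 8 members by the interaction test of edgeR. The change of the log2 difference from 5′ v1 to 3′ v3 was -2.75 for Trib3, -2.55 for Slc7a11, -1.75 for Ddit3, -1.74 for Sesn2, -1.66 for Atf5, -1.38 for Chac1, -0.76 for Atf4 and -0.58 for Slc3a2. Each kit had its own mixtures, so kit and mixture cannot be told apart.

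The line difference also differed between mixtures F and G of 3′ v3 for 5 members by the interaction test. The change from F to G was 0.33 for Slc3a2, 0.31 for Atf4, 0.27 for Asns, -0.28 for Psat1 and -0.54 for Slc7a11. Dixon's test marked 0 of the 20 groups of 4 libraries formed by the 10 members and both lines in 3′ v3. Each group holds 2 libraries of mixture F and 2 of mixture G, and where the mixtures lie apart the test can hardly mark a single library.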

How the results depend on the processing

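Of 1060 values of single members under an alternative, 949 kept direction and call, 60 lost the call, 17 gained it and 34 reversed, of which 27 were called neither before nor after. Counts of called members ranged over the alternatives from 9 to 10 between lines in 3′ v3 and from 6 to 9 in 5′ v1, and from 7 to 8, all lower, for line by kit. They ranged from 2 to 8 between mixtures in EL4, 3 to 10 in IVA12 and 0 to 5 for line by mixture. With library totals alone, Sesn2 (-0.060) and Slc3a2 (-0.19) between lines in 5′ v1, Slc3a2 between mixtures in EL4 (0.17) and Atf4 in IVA12 (0.26) reversed, and the split in 5′ v1 became 4 higher and 5 lower. RLE scaling gave 4 higher and 3 lower between mixtures in EL4. The counts under alternatives in this section have no share of all genes called beside them. A change in such a count is therefore not read as a result about the members. With a mitochondrial limit of 5%, 4 members were called between mixtures in EL4, 3 in IVA12 and 0 for line by mixture (3 at an unadjusted p under 0.05 by edgeR; DESeq2 with the 10% limit called 4), Ddit3 reversed to 0.18 in EL4 and 0.11 in IVA12, and Psat1 reversed to 0.014 for line by mixture. Without a filter on low counts, and with cells thinned to 5000 UMIs, 1 member was called for line by mixture. Thinning to 5000 instead of 10000 UMIs took the median rho over cells from 0.11 to 0.067. Leaving out 1 library gave 2 to 8 members between mixtures in EL4 and 1 to 4 for line by mixture, the lone library of a mixture being assumed to vary like the others. The 5′ v1 fit left no residual degree of freedom without a library and gave no value. Taking out the share of the other line, by the markers of the rule or by the lineage genes, both chosen after seeing the data, left 8 members called for line by kit. The rule holds the first share low, and the second also holds a line's own expression, so neither measures carried-over RNA alone. The reversals without a call were all of values near 0 in the analysis as reported, at most 0.23 in size. With library totals alone they were Atf5 for line by mixture (0.059) and Psat1 for line by kit (0.039). With a mitochondrial limit of 5% they were Slc3a2 between lines in 5′ v1 (-0.075), Atf4 between mixtures in IVA12 (0.088), and Sesn2 (0.28) and Atf5 (0.51) for line by mixture. With cells thinned to 5000 UMIs they were Slc3a2 between lines in 5′ v1 (-0.0061), Trib3 between mixtures in EL4 (-0.11) and IVA12 (-0.050), and Trib3 (-0.047), Ddit3 (-0.33) and Atf5 (0.039) for line by mixture. Atf4 between mixtures in IVA12 gave 0.0037 without a filter and 0.0099 in a separate fit of the line, and Atf5 for line by mixture gave 0.0059 by DESeq2 and 0.015 with a marker ratio of 2. Leaving out 1 library gave ranges across 0 for Trib3 between mixtures in EL4 (-0.037 to 0.18) and IVA12 (-0.025 to 0.11), Atf4 between mixtures in IVA12 (-0.052 to 0.030), Trib3 (-0.11 to 0.19), Chac1 (-0.068 to 0.43) and Atf5 (-0.19 to 0.078) for line by mixture, and Asns for line by kit (-0.032 to 0.077). Beyond the smaller sums and fewer cells or libraries of these settings, the cause was not tested. The lines were paired within each library in the line contrasts and interactions, and not in the mixture contrasts. No paired analysis by replicate number was possible because the numbers are only names given in accession order. The libraries of F and G shared target cell numbers in pairs (3000 and 6000), and with these as a block, chosen after seeing the data, 8 members were called between mixtures in EL4 and 8 in IVA12.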
